A study of Mus musculus with 42 samples.

Results

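Negative feedback regulators of p53 are genes whose products hold p53 back and which, in several cases, p53 itself switches on. The group described here was set by name and held 6 genes, Mdm2, Mdm4, Ppm1d, Ccng1, Ccng2 and Rchy1, out of 49585 in the count matrix, and all 6 were found and passed the filter on low counts in every fit. The matrix came from RNA sequencing of thymus, intestine, liver and pancreas, with 42 libraries from 25 mice. All mice were 4 weeks old and of a mixed BALB/c and C57BL/6 background. The 4 genotypes, written here as in the labels, were p53-null (Null), p53 +/- with 1 wild-type allele (Het), and p53 AD/- and p53 RP/-, with a single mutant allele of that name and no wild-type allele (AD and RP). The series title speaks of p53 dimers, and the labels do not describe the 2 mutations further. Each genotype gave 4 irradiated thymuses, collected 4 h after the exposure. The unirradiated (basal) set comprised thymus of 3 Het, 3 AD and 2 Null mice, and 3 AD and 3 Null samples of each of the other 3 organs. No mouse with 2 wild-type alleles was used here, and RP was measured in irradiated thymus alone. The labels gave no irradiation dose or sex.

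p53 is a transcription factor that is kept scarce in unstressed cells and accumulates after DNA damage. Mdm2 is a ubiquitin ligase that marks p53 for degradation, and Mdm4 is its relative, which binds and masks the activation domain of p53. Ppm1d (also called Wip1) is a phosphatase that removes phosphates placed on p53 and on its upstream kinases during the damage response. Ccng1 and Ccng2 encode cyclins G1 and G2, both of which bind PP2A phosphatase through its B56 subunits, and cyclin G1 directs PP2A to Mdm2. Rchy1 (also called Pirh2) is another ubiquitin ligase for p53. Thymocytes are known for a strong p53 response to radiation.

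Sequence upstream of 3 members is shown because they had the largest differences in the thymus results that follow and because each held a match to the p53 half-site, the element that p53 binds in pairs. The sequences are from RefSeq on GRCm38.p6 and are printed on the strand of the gene, ending just before the annotated gene. Those of Ccng1 (chr11:40755312-40755536, minus strand), Ppm1d (chr11:85311004-85311243, plus strand) and Mdm2 (chr10:117710759-117711008, minus strand) are as follows, with matched bases in capitals.
Ccng1: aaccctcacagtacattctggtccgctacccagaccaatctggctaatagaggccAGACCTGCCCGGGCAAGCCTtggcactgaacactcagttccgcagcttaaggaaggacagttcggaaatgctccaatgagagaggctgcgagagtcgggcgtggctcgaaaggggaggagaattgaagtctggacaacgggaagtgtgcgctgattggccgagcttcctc
Ppm1d: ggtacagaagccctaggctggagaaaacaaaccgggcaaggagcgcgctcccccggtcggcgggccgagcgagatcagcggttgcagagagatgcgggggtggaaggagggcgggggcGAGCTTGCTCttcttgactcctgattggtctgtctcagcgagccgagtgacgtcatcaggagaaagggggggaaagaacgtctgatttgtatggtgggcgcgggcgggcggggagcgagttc
Mdm2: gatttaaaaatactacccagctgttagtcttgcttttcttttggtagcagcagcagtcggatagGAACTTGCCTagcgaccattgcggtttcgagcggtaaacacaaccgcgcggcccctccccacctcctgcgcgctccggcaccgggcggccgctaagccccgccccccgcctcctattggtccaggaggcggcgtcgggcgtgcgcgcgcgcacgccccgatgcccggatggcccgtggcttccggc
Within windows from 250 bases before to 50 bases after the annotated start, all 6 members had at least 1 window and there were 8 windows in all. An exact match to the p53 half-site consensus, which reads the same on either strand, was present in the Mdm2, Ppm1d and Ccng1 windows and in 1 of the 2 Rchy1 windows. No such match was present in the Ccng2 window or in either Mdm4 window. Of 32851 windows of the same length across the genome, 8.36% held an exact half-site. A pair of adjacent half-sites with at most 1 base off the consensus was present in Ccng1 alone among the members and in 0.067% of all windows. It is the run of 20 capitals above, at positions -195 to -176 relative to the start and includes the exact half-site as its second part. The sequence GTAAACA, a core recognised by FOXO factors, was searched on either strand and was found in the Mdm2 window and in 3.65% of all windows. A match describes letters and not occupancy. In Mdm2 the p53-responsive promoter is known to lie in the first intron, outside the window, and the gene-level counts do not separate transcripts from the 2 promoters.

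Total counts were 26.4e6 to 33.3e6 for the 24 thymus libraries, 19.9e6 to 24.8e6 for pancreas, and between 24.3e6 and 34.8e6 for the remaining tissues. Member counts ranged from 43 for Ccng2 to 32116 for Ccng1, and counting error weighs most at the low end, which is Ccng2 in pancreas. Levels are given as CPM, counts relative to library size after scaling all 42 libraries together by the TMM method of edgeR, and as CPM per kilobase of exon where genes are compared with each other. A difference is a log2 fold change ± its standard error (SE) and was called at a Benjamini-Hochberg adjusted p under 0.05 in edgeR. Trp53 transcript was lower in irradiated Null thymus (12.4 to 13.8 CPM) than in the other irradiated genotypes (19.9 to 25.1 CPM) and was present in every Null library. Thymocyte markers were detected for 12 of 12 genes in all thymus groups, as they were in intestine and in Null liver. Their sum was at least 8948 CPM in thymus and at most 262 CPM in the other tissues. Hepatocyte markers summed to at least 94849 CPM in liver, and acinar markers to at least 345046 CPM in pancreas.

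In irradiated thymus, 4 of the 6 regulators rose with the wild-type allele, Ccng1 most, then Ppm1d, Mdm2 and Mdm4, while Ccng2 and Rchy1 did not pass the test. The 4 of 6 stand against 19.2% of all 22206 genes tested that were called in the same comparison of Het with Null, and 9.79% that were called higher. With either mutant allele in place of the wild-type one, no member was called against Null.

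**Figure D1:**
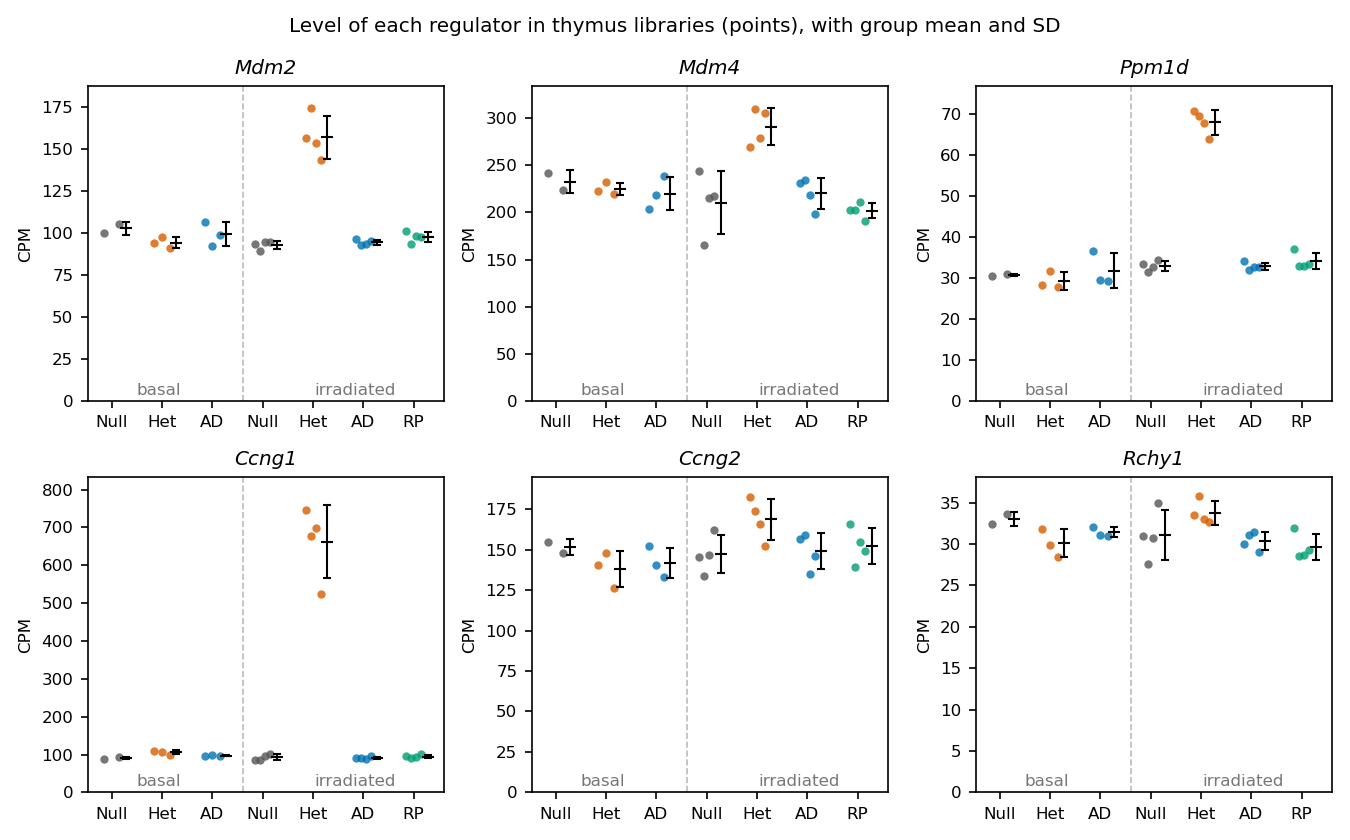
Level of each of the 6 regulators in CPM (vertical axes, starting at 0) in the 24 thymus libraries, one point per mouse, by genotype and irradiation state, with the group mean and SD beside the points. The 4 irradiated Het libraries lie above all 20 other thymus libraries for Mdm2, Mdm4, Ppm1d and Ccng1 and overlap with them for Ccng2 and Rchy1. The share of all genes separated in this way was not counted.

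The ligase gene Mdm2 (ENSMUSG00000020184) lies on chromosome 10 from 117688875 to 117710758 on GRCm38. Its level in the 4 irradiated Het libraries was 156.5, 174.2, 153.4 and 143.1 CPM. In irradiated Null it was 93.2, 89.4, 94.4 and 94.5 CPM, so the lowest Het library was well above the highest Null library. In AD it was 96.1, 92.8, 93.2 and 94.9 CPM and in RP 101.0, 93.2, 98.3 and 97.6 CPM. In AD 2 of 4 libraries and in RP 3 of 4 were slightly above the highest Null library, and all of both groups lay far below Het. The difference between Het and Null was 0.73 ± 0.05, with an edgeR adjusted p of 1.74e-08. In unirradiated thymus Mdm2 stood at 99.99 and 105.5 CPM in Null, at 93.9, 97.7 and 90.8 CPM in Het and at 106.7, 92.2 and 98.5 CPM in AD. The basal Null libraries were thus slightly above the basal Het ones, and that difference was not called.

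Mdm4 (ENSMUSG00000054387), on chromosome 1 from 132959484 to 133030561, was the member with the smallest called difference. It stood at 269.7, 310.0, 278.6 and 305.9 CPM in irradiated Het and at 244.2, 165.1, 215.1 and 217.7 CPM in irradiated Null. The groups did not overlap, and Null-604 lay below the other Null libraries. AD libraries ranged from 197.9 to 234.6 CPM and RP libraries from 191.4 to 211.3 CPM. The difference of Het from Null was 0.44 ± 0.09 (edgeR adjusted p = 0.00225). The annotated gene overlaps Gm29257, and whether reads were counted by strand is not given in the sources used here.

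The phosphatase gene Ppm1d (ENSMUSG00000020525) is on chromosome 11 from 85311244 to 85347066, 15.7 Mb from Trp53. Irradiated Het libraries held 70.6, 69.5, 67.8 and 63.8 CPM, and irradiated Null libraries held 33.3, 31.4, 32.6 and 34.3 CPM. Het was about 2.03-fold above Null, at 1.02 ± 0.05 on the log2 scale (edgeR adjusted p = 1.68e-10). AD libraries, at 34.0, 31.8, 32.7 and 32.7 CPM, lay inside the Null range. RP libraries read 37.1, 32.9, 33.0 and 33.5 CPM, and only RP-649 was above it.

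Ccng1 (ENSMUSG00000020326), on chromosome 11 from 40748552 to 40755311 and 28.8 Mb from Trp53, had by far the largest change of the 6. Its level was 746.5, 678.7, 699.7 and 523.7 CPM in irradiated Het against 86.2, 86.5, 97.4 and 101.9 CPM in irradiated Null. All 4 Het libraries stood far above Null, and Het-631, the lowest, was also the lowest of its group for every member except Mdm4. AD libraries read 91.8, 91.2, 89.5 and 94.9 CPM and RP libraries 96.3, 89.8, 93.3 and 100.3 CPM, all inside the Null range. The difference of Het from Null was 2.81 ± 0.09, a 6.99-fold change, with an edgeR adjusted p of 1.02e-13. Ranked by p among all 22206 genes, Ccng1 was at place 6, Ppm1d at 35, Mdm2 at 84 and Mdm4 at 1467. By size of change Ccng1 was exceeded by 56 genes and Mdm2 by 1778.

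Its relative Ccng2 (ENSMUSG00000029385), on chromosome 5 from 93267257 to 93276231, stood at 182.4, 173.8, 166.0 and 152.0 CPM in irradiated Het and at 145.7, 133.6, 146.9 and 162.2 CPM in irradiated Null. The groups overlapped, and the difference of 0.17 ± 0.07 was not called (edgeR adjusted p = 0.107). Without Het-631 it became 0.21 and was called, with an edgeR adjusted p of 0.032. Rchy1 (ENSMUSG00000029397), on chromosome 5 from 91948904 to 91963068, stood at 33.5, 35.8, 33.0 and 32.6 CPM in Het and at 30.9, 27.6, 30.8 and 34.9 CPM in Null. These also overlapped, with a difference of 0.09 ± 0.07 and an edgeR adjusted p of 0.369. Rchy1 overlaps the annotated genes Thap6 and Gm43039, so part of its count may not be its own.

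Against irradiated Null thymus, 0 of 6 members were called in AD (0.027% of all genes tested were) and 0 of 6 in RP (0.0315% were). The AD differences ran from -0.02 to 0.07 and their 95% intervals stayed between -0.18 and 0.27, which does not reach the 0.44 of Mdm4, the 0.73 of Mdm2, the 1.02 of Ppm1d or the 2.81 of Ccng1 seen in Het. For RP the differences ran from -0.08 to 0.06 and the intervals from -0.26 to 0.19. No member had an unadjusted p under 0.05 in either comparison, and DESeq2 also called 0 members in both. Set against Het, the same 4 genes were called lower in AD (4 of 6, against 14% of all genes in either direction and 8.27% lower) and in RP (4 of 6, against 18.7% and 10.2%). For Ccng1 the difference from Het was -2.82 in AD and -2.79 in RP. No member was called between AD and RP (0 of 6, 0% of all genes, 0 members with an unadjusted p under 0.05, 0 called by DESeq2), with 95% intervals between -0.20 and 0.34. These comparisons share their Null and Het libraries, so they are not separate pieces of evidence.

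The same question was asked of the change with irradiation in each genotype, with basal and irradiated thymus taken from different mice. Handling that differed between the 2 sets of mice cannot be told apart from irradiation. In Het, 5 of 6 members rose, against 16.8% of all genes called in either direction and 8.74% called higher. Ccng1 rose by 2.61 ± 0.09, from 110.3, 106.8 and 99.7 CPM in the basal Het libraries, with an edgeR adjusted p of 5.26e-17. Ppm1d rose by 1.18 ± 0.07 from 28.3, 31.8 and 27.8 CPM (edgeR adjusted p = 7.33e-12), and Mdm2 rose by 0.70 ± 0.06 (edgeR adjusted p = 2.40e-09). For all 6 members, the uncalled Rchy1 included, the irradiated Het libraries lay entirely above the basal ones. The share of all genes separated in this way was not counted, so this separation does not set the members apart from other genes. Mdm4 rose by 0.34 ± 0.09 (edgeR adjusted p = 0.0127) from 222.9, 232.3 and 219.9 CPM. Ccng2 rose by 0.25 ± 0.08 from 140.6, 147.9 and 126.1 CPM, with an edgeR adjusted p of 0.0223. The calls for Mdm4 and Ccng2 were both lost without basal library Het-703 or Het-855, which leaves 3 of 6, and that for Ccng2 also without irradiated Het-594 or Het-595 and when only the 2 groups were fitted. Rchy1 was not called (0.13 ± 0.07, edgeR adjusted p = 0.194).

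In Null thymus 0 of 6 members were called between irradiated and basal libraries (0.131% of all genes were), and the differences ran from -0.12 to 0.12. In AD thymus 0 of 6 were called as well (0.546% of all genes were), with differences from -0.06 to 0.08 and 95% intervals between -0.23 and 0.24. In both genotypes 0 members had an unadjusted p under 0.05, and DESeq2 called 0. The difference between the responses was tested directly as an interaction. Het exceeded Null in 3 of 6 members (3.44% of all genes were called, 2.37% higher): Ccng1 by 2.56 ± 0.12, Ppm1d by 1.06 ± 0.11 and Mdm2 by 0.83 ± 0.09, with edgeR adjusted p of 1.60e-13, 1.77e-07 and 3.97e-07. Mdm4 was at 0.46 ± 0.14 and missed the threshold (edgeR adjusted p = 0.0699). DESeq2 called it (adjusted p = 0.0304) and so did edgeR without irradiated Null-593 (adjusted p = 0.018). No other alternative called it, and its edgeR adjusted p reached 0.1523 under the other settings. Het exceeded AD in the same 3 members, 3 of 6 against 3.98% of all genes in either direction and 2.94% higher. Between AD and Null 0 of 6 responses were called to differ (0% of all genes, 0 members with an unadjusted p under 0.05, 0 by DESeq2), with 95% intervals between -0.37 and 0.42. For Mdm4 the response in AD had a 95% interval of -0.18 to 0.20, and the response in Het was 0.34. The direct test of Het minus AD for Mdm4 gave 0.33 and was not called (edgeR adjusted p = 0.195).

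**Figure D2:**
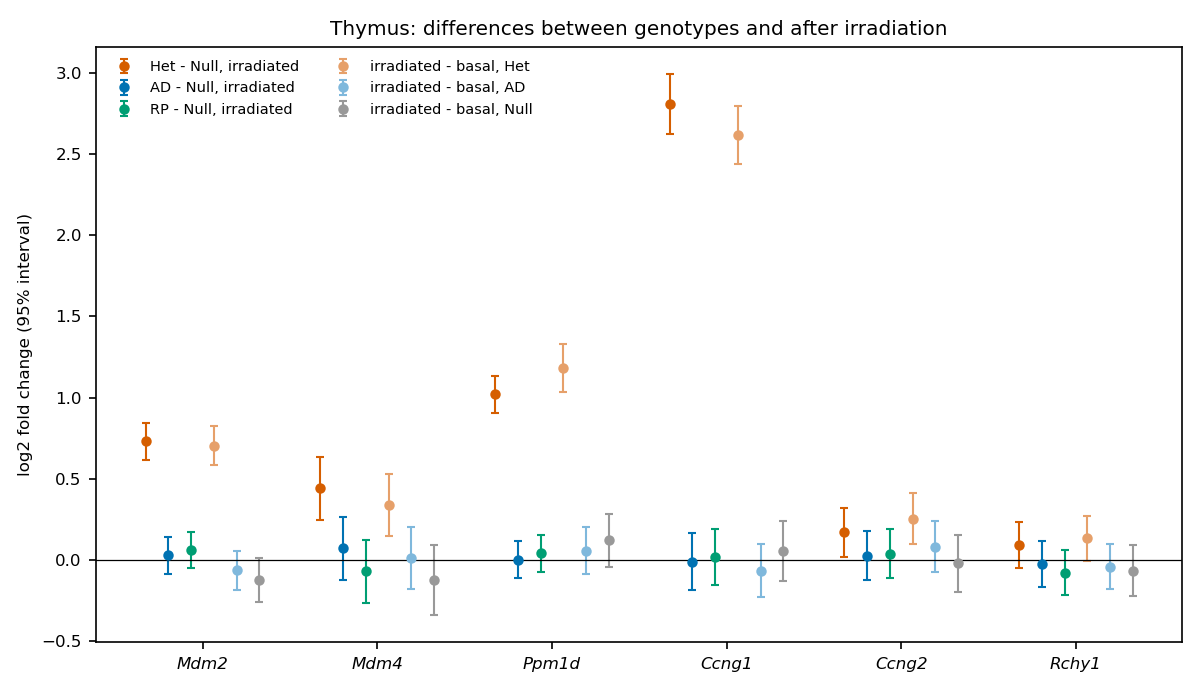
Log2 fold change (vertical axis) of each regulator (horizontal axis) for 6 thymus comparisons, with 95% intervals from edgeR as bars. The intervals of both Het comparisons stand clear of 0 for Mdm2, Mdm4, Ppm1d and Ccng1, with values from 0.34 for Mdm4 to 2.81 for Ccng1, and for Ccng2 at 0.17 and 0.25, and the AD, RP and Null comparisons lie between -0.12 and 0.12 for all 6 genes.

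Without irradiation, no member was called between genotypes of thymus. Het differed from Null in 0 of 6 (0.0676% of all genes), AD from Null in 0 of 6 (0.0676%) and AD from Het in 0 of 6 (0%). DESeq2 also called 0 members in these 3 comparisons, and Ccng1 alone had an unadjusted p under 0.05, in Het against Null and in AD against Het. The nearest to a difference was Ccng1, at 88.4 and 93.1 CPM in Null, 96.0, 97.7 and 96.3 CPM in AD and 110.3, 106.8 and 99.7 CPM in Het. These 3 groups did not overlap and were ordered Null, AD, Het, but no step of that order was called. The share of all genes separated in this way was not counted. The difference of Het from Null was 0.25 ± 0.07 with an unadjusted p of 0.00243 and an edgeR adjusted p of 0.334, so it does not pass the correction. The basal thymus fits had 2 Null mice, and they leave Ccng1 between 0.10 and 0.40 by the 95% interval.

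Over the 20 thymus libraries that were not irradiated Het, the members varied little. The highest was above the lowest by 1.19-fold for Mdm2, 1.27-fold for Rchy1, 1.28-fold for Ccng1, 1.32-fold for Ccng2, 1.33-fold for Ppm1d and 1.48-fold for Mdm4. The order of levels per kilobase of exon shifted with the response. In irradiated Null thymus Ccng2 (27.0 CPM per kb) and Ccng1 (26.5) were level, followed by Mdm2 (18.3), Mdm4 (14.2), Ppm1d (10.4) and Rchy1 (8.23). In irradiated Het thymus Ccng1 led with 189 CPM per kb, Ccng2 and Mdm2 stood at 30.9 and 30.8, and Ppm1d (21.4) was above Mdm4 (19.7). Ccng1 then made up 62.8% of the summed level of the 6 genes per kilobase, compared with 25.3% in irradiated Null.

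The balance between paired regulators was followed as a ratio within each library, which does not depend on how libraries are scaled. On the log2 scale and per kilobase of exon, Ccng1 to Ccng2 was 2.6 ± 0.13 (SD, n = 4) in irradiated Het and -0.03 ± 0.07 (SD, n = 4) in irradiated Null. AD (-0.06) and RP (-0.04) were close to Null. In thymus the 2 cyclins were near parity except in irradiated Het, where the lowest library was at 2.42. The difference of 2.63 gave a two-sided exact permutation p of 0.0286, the smallest that 4 against 4 allows, and an adjusted value of 0.457 over the 16 ratio comparisons. Mdm2 to Mdm4 was 0.65 ± 0.14 (SD, n = 4) in irradiated Het and 0.38 ± 0.21 (SD, n = 4) in irradiated Null, and the groups overlapped (exact permutation p = 0.0571, adjusted 0.457). With 3 mice against 3 the smallest possible p is 0.1 and with 3 against 2 it is 0.2, so the basal ratios could not pass. Nor could those of 4 against 4 once adjusted over 16 comparisons, so the adjusted values say nothing about stability.

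**Figure D3:**
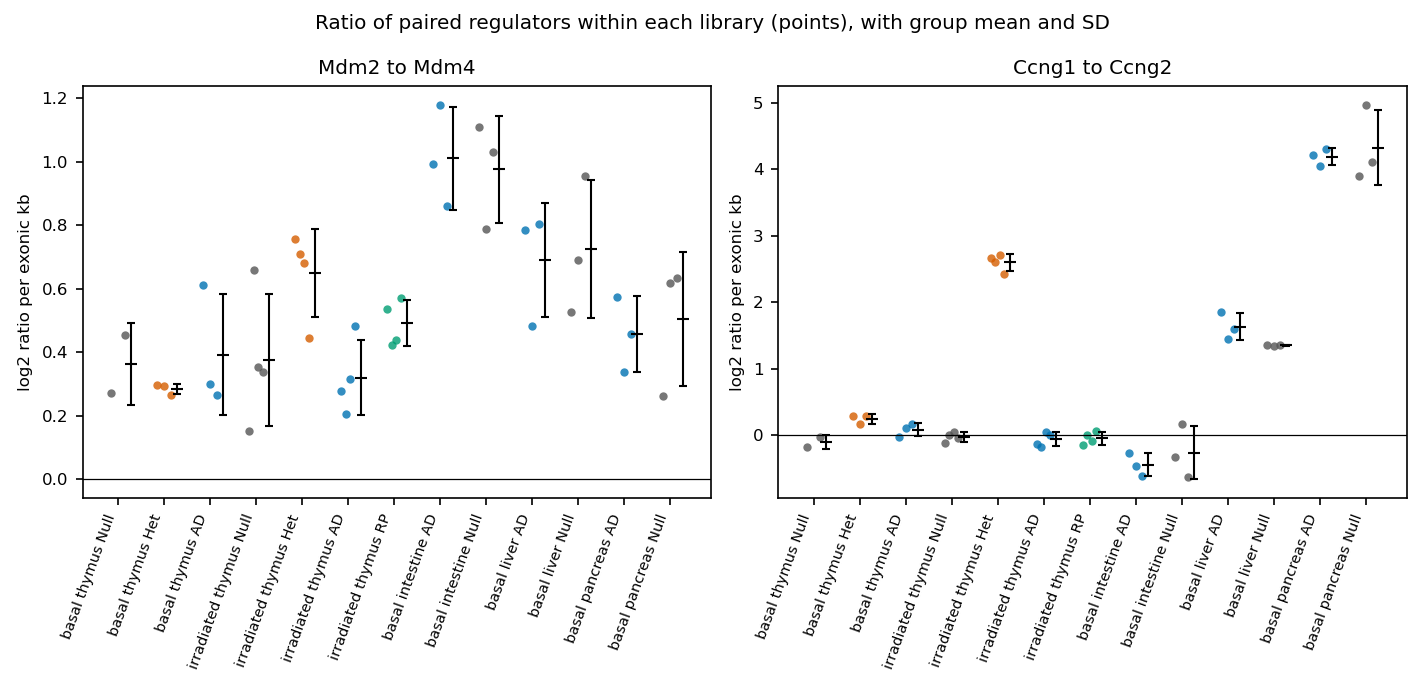
Log2 ratio per exonic kilobase of Mdm2 to Mdm4 and of Ccng1 to Ccng2 (vertical axes) in each library of the 13 groups, one point per mouse, with the group mean and SD. For Ccng1 to Ccng2, irradiated Het thymus (2.6) stands away from the other thymus groups (-0.10 to 0.25), and pancreas is highest (4.19 in AD and 4.33 in Null).

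Other genes of the pathway were read from lists in the same comparison of irradiated Het with Null, where the median change of all genes was -0.01 and where 9.79% of all genes were called higher and 9.38% lower. A list's count near those shares does not set it apart. Of 29 other p53 targets, 23 rose and 0 fell, with a median of 2.08. They include the cytokine gene Gdf15 (5.43 ± 0.39), the death gene Bbc3 (4.39 ± 0.18) and the kinase gene Plk2 (3.83 ± 0.12). Mdm2 (0.73), Mdm4 (0.44) and Ppm1d (1.02) lay below the median of that list, and Ccng1 (2.81) lay above it. Of 24 other regulators of p53 ubiquitylation, 1 rose and 7 fell, with a median of -0.17. Those that fell included the nucleolar genes Gnl3 (-1.31 ± 0.15) and Npm1 (-0.79 ± 0.13) and Rpl5 (-0.39 ± 0.11), a ribosomal protein that inhibits Mdm2. The products of these 3 genes are known to bind Mdm2 and limit its action on p53, so the list holds inhibitors of p53 turnover as well as ligases.

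Relatives of the members were read in the same way. Among 16 tested PP2C phosphatases, the family of Ppm1d, 1 rose and 4 fell, Ppm1g the most at -0.48 ± 0.07. Among 23 other cyclins 0 rose and 8 fell, with a median of -0.14 and with the mitotic cyclin Ccnb1 at -0.88 ± 0.15 and the S phase cyclin Ccne1 at -0.68 ± 0.14. Of the 5 B56 subunits that cyclins G bind, only Ppp2r5d was called (0.49 ± 0.06, edgeR adjusted p = 1.85e-05), and it was also called in the interaction of Het with Null (0.55 ± 0.11). FOXO factors, which are known to control Ccng2, and their other targets had 9 of 19 called higher and 0 lower with a median of 0.19, among them Foxo3 itself (1.002 ± 0.066) and Irs2 (0.92 ± 0.07). Of 24 kinases and cofactors upstream of p53, 5 rose and 5 fell, including the checkpoint kinase gene Chek1 (-0.73 ± 0.10). In AD against Null and in RP against Null, 0 genes were called in each of these 7 lists.

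Markers of other cells in the same comparison are given against the same shares of all genes, 9.79% higher and 9.38% lower. Of 8 thymic epithelium markers 4 rose and 0 fell, and their summed level was 2477 to 3001 CPM in irradiated Het and 1998 to 2074 CPM in irradiated Null. Macrophage markers (2 of 10 higher) summed to 556 to 1070 CPM in Het and 645 to 772 CPM in Null, and thymocyte markers (2 of 12 higher) summed to 10359 to 12680 and 8948 to 11638 CPM. Mature T cell and B cell markers had 0 of 6 called each, and their sums reached lower in Het, at 205 to 362 CPM against 324 to 403 CPM and at 305 to 550 CPM against 508 to 555 CPM. Of these 5 lists, thymic epithelium alone had sums that did not overlap between Het and Null, and no marker in them was at 0. Their part in the rise of the regulators was not tested. In whole tissue, fewer cells of a type and less RNA per cell cannot be told apart.

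The genes whose log2 CPM tracked each member most closely over the 24 thymus libraries were found among the 14779 genes that averaged 1 log2 CPM or more. Pearson's r is given as a description, since all genes share the same libraries and the 4 irradiated Het libraries lie apart for 4 members. Closest to Ccng1 were Ei24 (r = 0.994), Bax (0.991) and Glipr1 (0.991). Closest to Ppm1d were Ddias (0.988), Apaf1 (0.983) and 9230114K14Rik (0.980), and closest to Mdm2 were Polk (0.979), Rnf169 (0.974) and Aen (0.973). Mdm4 followed Kansl1 (0.924) and Rapgef2 (0.914) most. Lower values were reached for Ccng2, with Btg2 first (0.848), and for Rchy1, with Picalm first (0.783), the members whose level varied least.

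In unirradiated intestine, liver and pancreas, no member was called between AD and Null by edgeR or DESeq2. The counts were 0 of 6 in intestine (0.015% of all genes), 0 of 6 in liver (0.267%) and 0 of 6 in pancreas (0.0548%). The only member with an unadjusted p under 0.05 was Ccng2 in liver, at 21.9, 29.6 and 26.3 CPM in AD and 36.5, 41.1 and 34.2 CPM in Null. Those groups did not overlap, and the share of all genes separated in this way was not counted. The difference was -0.48 ± 0.14, with an unadjusted edgeR p of 0.0072 and an edgeR adjusted p of 0.313. Intervals were wider here than in thymus, reaching from -0.79 to 0.65 over the 6 members in liver, from -0.52 to 0.71 in intestine and from -0.51 to 0.60 in pancreas. The difference between AD and Null was also compared between each of these tissues and thymus, and 0 of 6 members were called for intestine (0.0778% of all genes), liver (0.086%) and pancreas (0.0737%), with 0 members at an unadjusted p under 0.05 and 0 called by DESeq2.

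Between unirradiated tissues most members differed, and so did most genes. Thymus was set against intestine, liver and pancreas over the 23 basal libraries. The tissues came from the same mice, and this fit had no term for the mouse. Of the 6 members, 5, 6 and 6 were called, against 75%, 79.3% and 70.4% of all genes. A share of this size is near the background. Mdm2, Mdm4 and Ppm1d were higher in thymus than in each of the other 3 tissues. Mdm4 exceeded intestine by 1.14 ± 0.09, liver by 1.503 ± 0.092 and pancreas by 0.96 ± 0.09, and Ppm1d exceeded them by 1.63 ± 0.12, 1.25 ± 0.12 and 1.17 ± 0.12. Ppm1d was low everywhere else, ranging over 8.76 to 13.5 CPM in intestine, over 11.9 to 17.5 CPM in liver and over 12.6 to 17.1 CPM in pancreas.

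Ccng2 had the widest range over tissues. It stood at 133.3 to 151.9 CPM in basal AD thymus and 147.9 and 154.8 CPM in basal Null thymus. In intestine it was 134.2, 172.4 and 172.3 CPM in AD and 128.2, 99.1 and 165.5 CPM in Null, and thymus and intestine overlapped. In pancreas it was 8.58, 12.2 and 10.2 CPM in AD and 10.6, 6.25 and 12.3 CPM in Null, below every library of the other tissues. Thymus exceeded pancreas by 3.91 ± 0.15 (edgeR adjusted p = 9.65e-17) and liver by 2.36 ± 0.14 (edgeR adjusted p = 1.06e-13). Thymus and intestine differed by 0.12 ± 0.13, which was not called (edgeR adjusted p = 0.42), although scaling by library totals made it 0.61 and called it.

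Ccng1 and Rchy1 went the other way in pancreas. Ccng1 was 104.7, 133.4 and 132.8 CPM in pancreas of AD and 103.7, 131.9 and 139.8 CPM in Null, above every basal AD and Null library of the other tissues. Rchy1 was 43.9 to 65.8 CPM in pancreas and at most 33.6 CPM in basal AD and Null libraries elsewhere. The difference of thymus from pancreas was -0.37 ± 0.09 for Ccng1 and -0.77 ± 0.10 for Rchy1 with TMM scaling, but 1.69 and 1.28 with library totals. The 2 scalings differ by 1.997 log2 units for the median gene between thymus and pancreas, so a direction between these tissues is relative to that choice for both genes. Among comparisons without thymus, 5, 5 and 5 members were called for intestine against liver, intestine against pancreas and liver against pancreas (70.5%, 64.3% and 65.3% of all genes), and each member except Ccng2 turned direction with the scaling in at least 1 of these 3. The ratio of Ccng1 to Ccng2, free of scaling, was -0.44 in intestine, 1.63 in liver and 4.19 in pancreas of AD mice and -0.26, 1.35 and 4.33 in Null. The 2 cyclin genes thus stood in opposite order in intestine and pancreas, and Ccng1 was 47.7% of the summed level per kilobase in Null pancreas while Ccng2 was 2.39%.

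**Figure D4:**
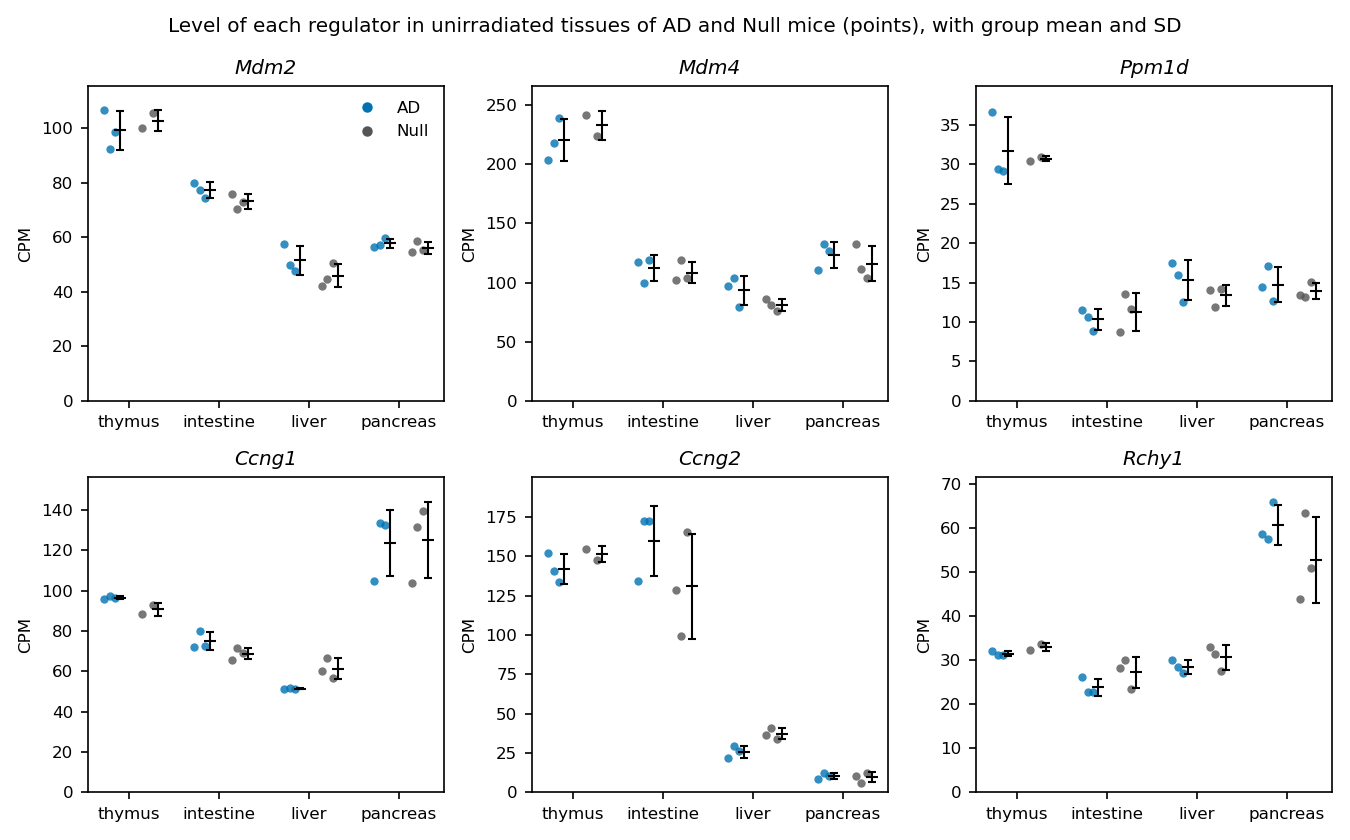
Level of each regulator in CPM (vertical axes, starting at 0) in unirradiated thymus, intestine, liver and pancreas of AD and Null mice, one point per mouse, with the group mean and SD. No member was called between AD and Null within a tissue, although some points did not overlap, such as those of Ccng1 and Ccng2 in liver. Ccng2 falls from above 99 CPM in thymus and intestine to at most 12.3 CPM in pancreas, where Rchy1 is highest.

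Markers of pancreas were also read in other tissues. Acinar markers, again by library totals without TMM scaling, summed to between 689 and 90665 CPM over the 6 intestine libraries. In liver they summed to at most 1138 CPM, compared with 345046 to 455013 CPM in pancreas. Their part in the intestine values of the members was not tested. In basal thymus the same markers summed to at most 6.57 CPM. Mdm2 to Mdm4 was highest in intestine, at 1.01 in AD and 0.98 in Null on the log2 scale per kilobase, and lowest in basal Het thymus at 0.28.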

How the data were processed

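The authors deposited 1 matrix of raw whole-number counts (49585 genes by 42 libraries). Alignment with STAR 2.6.0b against GRCm38 and use of DESeq2 are named in the submitters' processing notes. The counter, annotation release and strandedness are not given in the sources used here. For 8 basal thymus columns without a tissue in the name, the animal number left a single match. Symbols and positions came from GENCODE M21 (49326 identifiers matched). The members and gene lists were chosen with earlier results of these data known. Analysis used R 4.3.3, edgeR 4.0.16 and DESeq2 1.42.0. Low counts were removed with filterByExpr, TMM factors scaled the libraries, and robust quasi-likelihood F tests were run separately for irradiated thymus (16 libraries), basal thymus (8), each other tissue (6), all thymus (24) and basal AD and Null tissues (23), with p adjusted over all genes tested. Log2 CPM used a prior count of 2. Ratio tests were two-sided exact permutation tests in scipy 1.17.1. The fits were tested on simulated data. Besides the members, up to 4 called genes per list could be named, by size of change.

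Among 49 pairs of libraries of the same group none was a copy. Basal tissues of the same mouse were identified by the animal numbers in the labels (5 mice gave all 4 tissues, and Null-1087 gave all but thymus). Over 33 same-mouse tissue pairs the correlation of residuals had a median of 0.116 (-0.012 to 0.412). Each library is 1 mouse, and p-values describe the spread between these mice. Alternatives were RLE scaling, no filter, DESeq2, only the 2 groups compared, a replicate block for the mouse, leaving out each library and, added after the data were seen, scaling by library totals.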

Additional observations from a re-analysis of the deposited data

Results flagged for a closer look

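The irradiation response differed between genotypes for 3 regulators by the interaction test in edgeR. Het exceeded Null by 0.83 for Mdm2, 1.06 for Ppm1d and 2.56 for Ccng1 on the log2 scale, and Het exceeded AD by 0.77, 1.12 and 2.68 for the same genes. In each case all irradiated Het libraries were above all basal Het libraries. In Null and AD the differences of the members lay between -0.12 and 0.12, and none was called. Small separations were seen there too. In Null, irradiated Mdm2 (89.4 to 94.5 CPM) lay below basal (99.99 and 105.5 CPM). Irradiated Ppm1d in Null (31.4 to 34.3 CPM) lay above basal (30.5 and 31.0 CPM). Irradiated Ccng1 in AD (89.5 to 94.9 CPM) lay below basal (96.0 to 97.7 CPM). The edgeR adjusted p were 0.7157, 0.7855 and 0.7783 in that order. In the remaining cases irradiated and basal libraries overlapped. The share of all genes separated in this way was not counted, so these separations are not set apart from the background.

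One library lay apart from its group. For Ppm1d, RP-649 was the highest of the 4 irradiated RP libraries at 37.1 CPM, and its gap to the next library was 0.869 of the whole range of the group. It was the single such case among 32 groups of values examined, and chance gives about 1 in 20.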

How the results depend on the processing

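Of 2238 alternative values for the members' differences, 2207 kept their side of the threshold and, where called, their direction. Another 12 passed the threshold newly, 8 no longer passed and 11 reversed. Signs were compared only where at least 1 of the 2 values was called, so values called in neither may have changed sign. Scaling by library totals, chosen after seeing the data, gave all 11 reversals, each in a comparison of basal tissues: for thymus against pancreas Ccng1 1.69 and Rchy1 1.28, for intestine against liver Ppm1d 0.37 and Rchy1 0.57, for intestine against pancreas Mdm4 1.37, Ppm1d 1.08, Ccng1 0.71 and Rchy1 0.35, and for liver against pancreas Mdm2 0.48, Mdm4 0.25 and Ppm1d 0.71. That scaling moved the median of all genes by 0.65 to 1.997 in the 3 comparisons with pancreas. The number of members that rose with irradiation in Het was 3 to 5 when 1 library was left out. The replicate block for the mouse changed 1 call, that of Rchy1 in intestine against liver (-0.20, edgeR adjusted p = 0.0419, against 0.0576 without the block). Rchy1 in thymus against liver lost its call without liver Null-1087 (edgeR adjusted p = 0.0583), and Rchy1 in RP against Het gained one without RP-649 (0.0495). Leaving out single libraries also called Rchy1 in intestine against liver and Mdm4 in intestine against pancreas. The cause of these changes was not tested.

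Counts over all genes moved more than those of the members. In irradiated Het against Null, 4257 genes were called and 2208 when only these groups were fitted, and for the response in Het 3972 and 2370. DESeq2 called 97 genes in irradiated AD against Null (edgeR 6), 31 in RP against Null (7), 17 in AD against RP (0, and 47 with only these groups fitted), 122 for the response in Null (31), 319 for that in AD (129) and 1218 for its interaction of Het with Null (811). In basal thymus, intestine, liver and pancreas, AD against Null gave 15, 3, 42 and 8 genes in edgeR, 178, 106, 205 and 49 in DESeq2 and 403, 50, 454 and 209 without a filter. For Het against Null in basal thymus these were 15, 109 and 353. Leaving out 1 library gave ranges of 4 to 27 in irradiated AD against Null, 8 to 234 in basal thymus Het against Null, 7 to 29 in basal thymus AD against Null, 3 to 87 in liver, 4 to 26 in pancreas, 0 to 60 for the response in Null and 442 to 1329 for the interaction of Het with Null. Groups of 2 to 4 mice limit all small differences.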
